A study of Gossypium hirsutum with 18 samples.

Results

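The genes described here were 8 genes of upland cotton (*Gossypium hirsutum*) that encode the first committed steps of jasmonate synthesis, 5 named GhLOX3 and 3 named GhAOS, out of 54508 genes in the deposited table. They were taken by identifier, and the names come from the study. Gohir.A10G054600 and Gohir.D10G056600 are called GhLOX3-A10 and GhLOX3-D10, Gohir.A06G210300 and Gohir.A06G210400 are called GhLOX3-A06a and GhLOX3-A06b, and Gohir.D06G210700 is called GhLOX3-D06. Gohir.A05G260700, Gohir.D05G262900 and Gohir.A04G115900 are called GhAOS-A05, GhAOS-D05 and GhAOS-A04. The letter and number give the subgenome (A or D) and chromosome as written in the identifier, since upland cotton is an allotetraploid that carries both an A and a D copy of most genes. The study picked its jasmonate genes for higher expression in its resistant and moderately resistant genotypes than in its susceptible one, so the comparisons of uninfested genotypes with the susceptible one are given as description only.

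RNA was measured in roots of 3 genotypes, namely Acala SJ-2 (SJ2, susceptible to the southern root-knot nematode), Wild Mexico Jack Jones (WMJJ, moderately resistant) and Acala NemX (NemX, resistant). Each genotype was either left uninfested (ctl, water only) or infested with *Meloidogyne incognita* (rkn), with 5000 second-stage juveniles (J2) per plant given to seedlings aged 12 days. Roots were taken from plants aged 23 days, and each of the 6 groups (SJ2_ctl, SJ2_rkn, WMJJ_ctl, WMJJ_rkn, NemX_ctl and NemX_rkn) had 3 libraries. A resistance class is here 1 genotype, so class and all other differences between the genotypes cannot be told apart, and roots were whole, so fewer cells of a type and less RNA per cell cannot be told apart either. The libraries are labelled as biological replicates, but how plants were divided among them is not stated, and a p-value measures the spread between these libraries.

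Lipoxygenases of the LOX3 kind add oxygen to linolenic acid in the plastid. Allene oxide synthase (AOS) turns the resulting hydroperoxide into an unstable allene oxide, from which allene oxide cyclase makes the precursor of jasmonic acid. In *Arabidopsis*, jasmonate signalling raises the transcripts of LOX and AOS genes themselves, and wounding and insect feeding induce both. Jasmonates are among the hormones that act in root defence against nematodes.

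The values are expression values that the authors normalized before deposit. They lie near CPM, and column totals ran from 852215 to 1096547 over the 18 libraries, lowest in SJ2_ctl and highest in NemX_ctl. Whether they are scaled by transcript length is not stated, so values of different genes were not ranked against each other. Kallisto shares reads among similar transcripts, so the split of reads between A and D copies, and between the adjacent GhLOX3-A06a and GhLOX3-A06b, is uncertain. No identifier matched the annotation at hand, so root markers, gene structure and sequences were not examined. Of the 8 genes, 7 had a mean value of at least 1 and were among the 46813 genes tested. GhLOX3-A06b, with a mean of 0.774, was left out of the tests by that filter. A gene is called below when limma gave it an adjusted p below 0.01 (Benjamini-Hochberg over all tested genes) and an absolute log2 fold change above 1, both on the log2(value + 0.5) scale, which understates changes of low genes.

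GhLOX3-A10 rose on infestation in SJ2 and fell in both WMJJ and NemX, and GhAOS-A04 rose in SJ2 and WMJJ. In SJ2, 3 of the 7 tested genes rose (GhLOX3-A10, GhAOS-D05 and GhAOS-A04) and none fell or had a negative log2 difference, where 8.09% of all tested genes rose and 5.92% fell. In WMJJ, 3 fell (GhLOX3-A10, GhLOX3-D10 and GhLOX3-A06a), where 4.84% of tested genes fell, and GhAOS-A04 alone rose, where 5.60% rose. In NemX, GhLOX3-A10 and GhLOX3-A06a fell, 2 of 7 where 0.666% of tested genes fell, and none rose, where 0.568% did, although GhAOS-A04 had an unadjusted p under 0.05 for a higher value. The median log2 response of the 7 was 0.99 in SJ2, -0.63 in WMJJ and -1.12 in NemX, beside -0.04, 0.00 and -0.02 over all tested genes. Every response shares its uninfested libraries with the contrast for which the study chose these genes (low in SJ2_ctl, high in WMJJ_ctl and NemX_ctl), so the direction of the responses is not independent of that choice. The median for SJ2 includes a fitted value for GhLOX3-A06a, which was at 0 in all SJ2_ctl libraries. GhLOX3-A06a (mean 1.13) passed the filter only through WMJJ_ctl and NemX_ctl, with means of 2.90 and 2.86 against at most 0.41 elsewhere. Its falls in WMJJ and NemX, counted above, are therefore not independent of the filter.

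**Figure D1:**
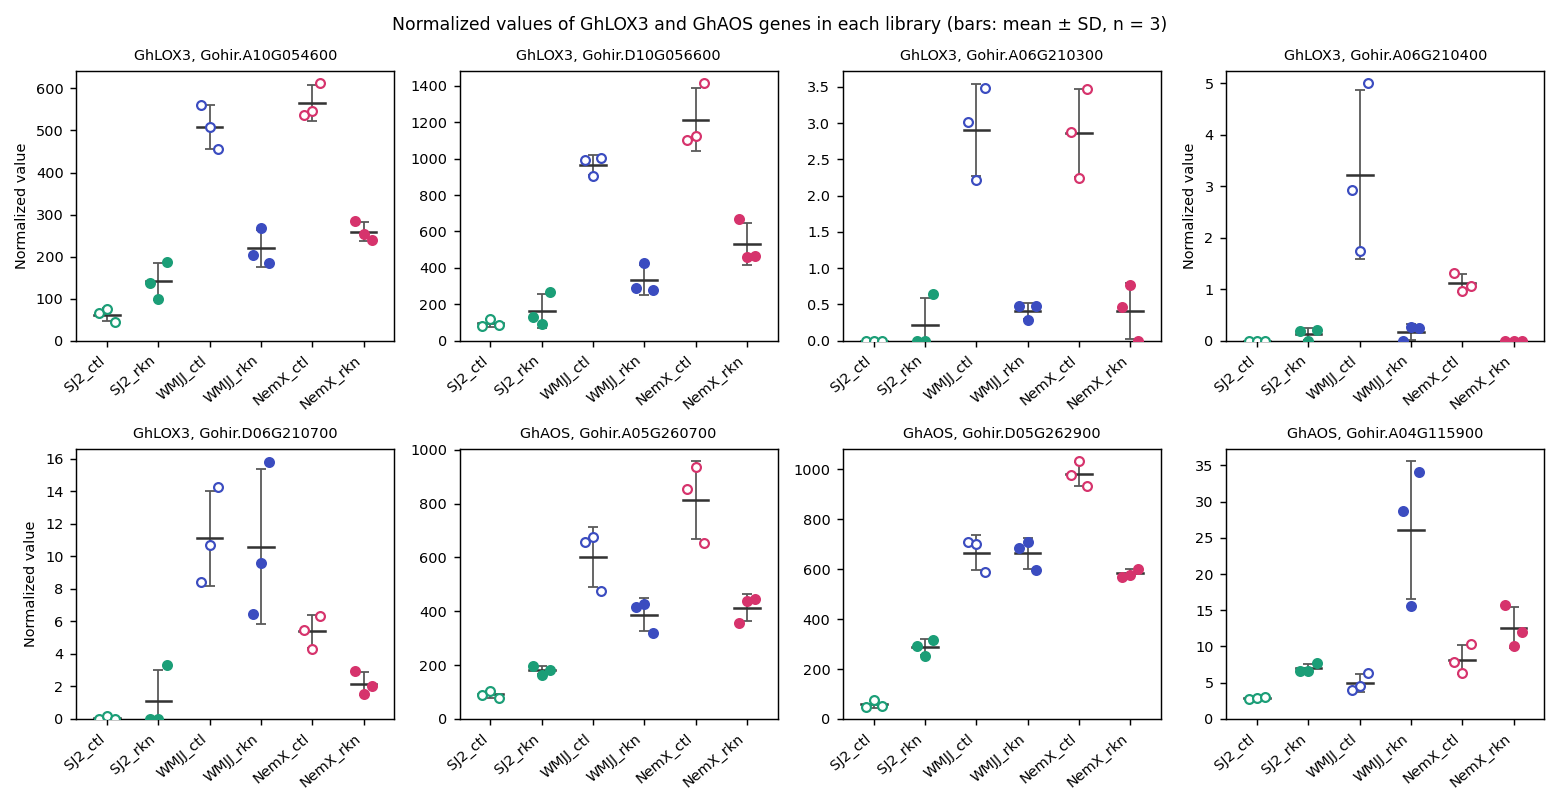
Deposited normalized value of each of the 8 genes in every library (linear axis from 0, a scale of its own per gene) in the 6 groups, with open circles for uninfested and filled circles for infested roots and bars for the mean and SD of 3 libraries. GhLOX3-A10, GhLOX3-D10, GhAOS-A05 and GhAOS-D05 are lowest in SJ2_ctl and highest in NemX_ctl, whereas GhAOS-A04 is highest in WMJJ_rkn, at 15.6 to 34.0.

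GhLOX3-A10, a lipoxygenase gene of the A10 and D10 pair, had values of 65.5, 75.6 and 45.0 in SJ2_ctl and 138, 98.8 and 186 in SJ2_rkn. In SJ2 it thus rose 2.24-fold, by 1.16 on the log2 scale (SE 0.21, adjusted p = 0.000235), with no overlap between the groups. The call rested on size. The log2 change was 0.99 with equal library totals, 0.90 with quantile normalization, 0.95 without SJ2_ctl replicate 3 and 0.94 without SJ2_rkn replicate 3, all below the fold threshold. In WMJJ the same gene went from 561, 508 and 457 in uninfested roots to 205, 268 and 185 in infested ones. This was a 2.34-fold fall (log2 -1.23, SE 0.21, adjusted p = 0.000197), and every infested library lay below every uninfested one.

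In NemX, GhLOX3-A10 was 536, 546 and 614 without the nematode and 285, 253 and 240 with it. It fell 2.18-fold (log2 -1.12, SE 0.21, adjusted p = 0.0035), again with no overlap. The size of this fall was steady, but the call was lost when any library of NemX other than NemX_rkn replicate 1 was left out, with adjusted p from 0.0137 to 0.0242. In infested roots the means were 141 ± 43.9 in SJ2, 219 ± 43.7 in WMJJ and 259 ± 23.3 in NemX (SD, n = 3), and neighbours in this order overlapped. SJ2_rkn and NemX_rkn did not overlap, with a log2 difference of 0.92 (limma, adjusted p = 0.00561) that missed the fold threshold.

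GhLOX3-D10, its D copy, stood at 80.8, 122 and 86.3 in SJ2_ctl and at 130, 90.9 and 266 in SJ2_rkn, which overlapped, and its log2 difference of 0.63 (95% interval 0.04 to 1.21) did not pass the test (adjusted p = 0.102). In WMJJ it dropped from 992, 903 and 1002 to 290, 427 and 279, a 2.96-fold fall (log2 -1.57, SE 0.28, adjusted p = 0.000307). In NemX it was 1105, 1122 and 1416 uninfested and 667, 460 and 466 infested, a log2 difference of -1.21 (SE 0.28) that missed the threshold at adjusted p = 0.0155 although the groups did not overlap. A fit on the NemX libraries alone gave it an adjusted p of 0.00164. Its 6 groups were ordered NemX_ctl, WMJJ_ctl, NemX_rkn, WMJJ_rkn, SJ2_rkn and SJ2_ctl, and only the last neighbours overlapped.

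The lipoxygenase genes of A06 and D06 reached at most 15.8 in any library, and several groups were at 0. GhLOX3-A06a was listed at 0 in every SJ2_ctl library and at 0, 0 and 0.638 in SJ2_rkn. It reached 3.01, 2.22 and 3.48 in WMJJ_ctl and 0.474, 0.281 and 0.472 in WMJJ_rkn, a fall of 1.89 on the log2 scale (SE 0.39, adjusted p = 0.00112). In NemX it was 2.87, 2.25 and 3.47 uninfested and 0.464, 0.765 and 0 infested, and it fell by 1.97 (SE 0.39, adjusted p = 0.00513). With 0.1 in place of 0.5 added before the log, neither fall passed (adjusted p = 0.0277 in WMJJ and 0.0401 in NemX). The NemX call was also lost without NemX_ctl replicate 1 or 2 or NemX_rkn replicate 1 or 3, with adjusted p from 0.0145 to 0.0399. No fold is given for SJ2, where all uninfested libraries were at 0.

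GhLOX3-A06b, the next identifier on the chromosome, was below the filter on the mean. It was listed at 0 in all SJ2_ctl and all NemX_rkn libraries, and at 0.194, 0 and 0.213 in SJ2_rkn. It was seen in uninfested WMJJ (2.93, 1.75 and 4.99) and NemX (1.31, 0.970 and 1.06), and at 0, 0.274 and 0.236 in infested WMJJ. Uninfested and infested libraries did not overlap in either WMJJ or NemX. In a fit with no filter it was called lower after infestation in WMJJ (log2 -2.41, SE 0.33, adjusted p = 1.57e-05) and in NemX (adjusted p = 0.00527, no fold given against libraries at 0). That fit also called its response higher in SJ2 than in NemX (adjusted p = 0.00613) and WMJJ (adjusted p = 0.000504).

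GhLOX3-D06 differed from the A06 genes in WMJJ. There it was 8.40, 10.7 and 14.2 in uninfested and 6.45, 9.58 and 15.8 in infested roots, a log2 difference of -0.12 with a 95% interval from -1.24 to 1.00. In SJ2 it was listed at 0, 0.185 and 0 and then, infested, at 0, 0 and 3.30, so a single library, SJ2_rkn replicate 3, held nearly all of its signal there. The log2 difference of 0.82 in SJ2 (adjusted p = 0.278) became -0.15 without that library. NemX lay between, at 5.48, 4.30 and 6.35 uninfested and 2.95, 1.53 and 2.03 infested. These did not overlap, but the log2 difference of -1.16 had a wide error (SE 0.54) and did not pass (adjusted p = 0.268).

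The allene oxide synthase copies GhAOS-A05 and GhAOS-D05 differed in how far they changed. GhAOS-D05 was 48.3, 74.4 and 51.5 in SJ2_ctl and 292, 252 and 315 in SJ2_rkn, and rose 4.96-fold (log2 2.31, SE 0.16, adjusted p = 1.7e-09). GhAOS-A05 went from 90.5, 105 and 78.7 to 196, 165 and 184 in the same libraries. Its log2 difference of 0.99 (SE 0.18, adjusted p = 0.000292) fell just short of the fold threshold. It was called with median-of-ratios scaling (1.03) and without SJ2_ctl replicate 2 (1.10) or SJ2_rkn replicate 2 (1.06).

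In WMJJ, GhAOS-D05 was 710, 701 and 588 uninfested and 684, 710 and 595 infested. The log2 difference was -0.01, and its 95% interval of -0.35 to 0.33 lay within the fold threshold on both sides. GhAOS-A05 was 659, 674 and 474 in WMJJ_ctl and 417, 429 and 318 in WMJJ_rkn, which did not overlap, with a log2 difference of -0.63 (adjusted p = 0.016).

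In NemX, GhAOS-A05 and GhAOS-D05 had lower values in every infested library than in any uninfested one, and neither was called. GhAOS-A05 was 853, 936 and 653 uninfested and 355, 440 and 447 infested, with a log2 difference of -0.97 (SE 0.18, adjusted p = 0.00383) that missed the fold threshold. Without NemX_ctl replicate 3, the lowest of its controls, the difference was -1.12 and was called (adjusted p = 0.00307). GhAOS-D05 was 976, 1032 and 933 uninfested and 570, 578 and 600.5 infested, with a log2 difference of -0.75 (SE 0.16, adjusted p = 0.0103).

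GhAOS-A04, the remaining allene oxide synthase gene, was higher after infestation in all 3 genotypes by its means, from 2.89 ± 0.126 to 6.98 ± 0.651 in SJ2, from 4.94 ± 1.24 to 26.1 ± 9.50 in WMJJ and from 8.18 ± 2.01 to 12.6 ± 2.85 in NemX (SD, n = 3). In SJ2_ctl its values were 2.77, 2.88 and 3.02, and in SJ2_rkn 6.61, 6.61 and 7.74. This rise was 2.20-fold (log2 1.14, SE 0.26, adjusted p = 0.00209) and came to a log2 change of 0.99 with equal library totals, short of the fold threshold.

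In WMJJ, GhAOS-A04 stood at 3.94, 4.55 and 6.33 before and 28.7, 15.6 and 34.0 after infestation. It rose 4.73-fold there (log2 2.24, SE 0.26, adjusted p = 2.08e-06), the only rise called among the 7 tested genes in WMJJ. Its log2 change was larger in size than that of GhLOX3-A06a (-1.89), but this order depended on the constant added before the log. With 0.1 added, the changes were 2.33 for GhAOS-A04 and -2.56 for GhLOX3-A06a, the latter not called (limma, adjusted p = 0.0277). NemX values of GhAOS-A04, at 7.85, 6.35 and 10.3 uninfested and 15.7, 10.1 and 12.0 infested, overlapped. The log2 difference of 0.60 did not pass the test (adjusted p = 0.231).

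**Figure D2:**
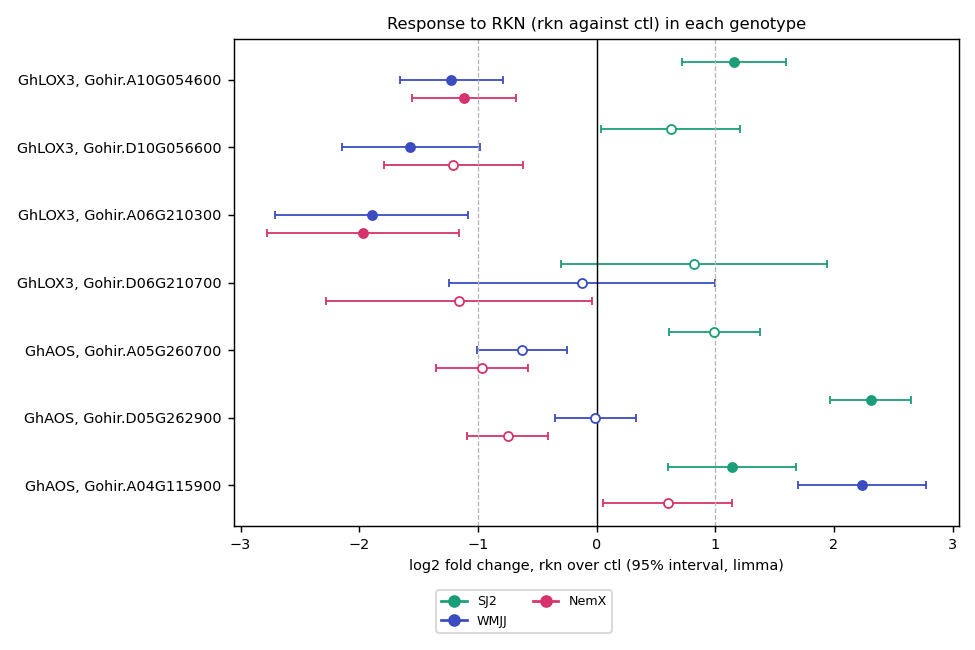
Log2 difference between infested and uninfested roots of each tested gene in SJ2, WMJJ and NemX, with 95% intervals from limma. Filled points were called and open ones were not, dashed lines mark a log2 change of 1 in either direction, and GhLOX3-A06a is left out for SJ2, where its uninfested libraries were at 0. SJ2 points lie at or above 0.63, and GhAOS-A04 in WMJJ stands apart from the falling GhLOX3 genes at 2.24.

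The responses themselves were then compared between genotypes. Each comparison with SJ2 contains the uninfested difference for which the study chose these genes. A higher response in SJ2, and the number of genes that show it, are therefore not independent of that choice. SJ2 differed from NemX in 5 of the 7 tested genes, all with a higher response in SJ2, where 5.22% of tested genes had a higher and 1.83% a lower response. GhAOS-D05 differed most, by 3.06 on the log2 scale (SE 0.23, adjusted p = 2.36e-08), ahead of GhLOX3-A10 at 2.29 (SE 0.30, adjusted p = 1.8e-05) and GhAOS-A05 at 1.96 (SE 0.26, adjusted p = 2.22e-05). GhLOX3-D10 differed by 1.83 (SE 0.40, adjusted p = 0.00315), and GhLOX3-A06a was called as well (adjusted p = 0.00556, no fold given because SJ2_ctl was at 0). GhLOX3-A06a passed the filter only through WMJJ_ctl and NemX_ctl, so its call is not independent of the filter. The GhLOX3-A06a call was lost with 0.1 added (adjusted p = 0.0272) and in 6 of the 11 fits without 1 library in which the gene still passed the filter (adjusted p from 0.0117 to 0.0186). Leaving out SJ2_ctl replicate 1 or NemX_rkn replicate 3 brought the count to 3, with an adjusted p of 0.0113 or 0.0109 for GhLOX3-D10. The call of GhLOX3-D10 was also lost without NemX_rkn replicate 2 (adjusted p = 0.0107), with quantile normalization (1.46, adjusted p = 0.0132) and with no intensity trend (adjusted p = 0.0104). GhLOX3-D06 (1.98, SE 0.76, adjusted p = 0.0988) and GhAOS-A04 (0.54, SE 0.37, adjusted p = 0.405) did not pass.

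SJ2 differed from WMJJ in 5 of the 7 genes, all with a higher response in SJ2, where 3.95% of tested genes had a higher and 1.12% a lower response in SJ2. The log2 differences were 2.39 for GhLOX3-A10, 2.19 for GhLOX3-D10, 1.62 for GhAOS-A05 and 2.32 for GhAOS-D05, with adjusted p between 1.73e-06 and 0.000844, and GhLOX3-A06a again had no fold (adjusted p = 0.00921). That last call was lost with 0.1 added (adjusted p = 0.0641), with a replicate block (adjusted p = 0.0111) and in 9 of the 11 fits without 1 library in which the gene passed the filter (adjusted p from 0.0131 to 0.0325). It dropped below the filter without WMJJ_ctl replicate 3 and in the fit on the compared groups. Its call here is likewise not independent of the filter. These comparisons share the SJ2 libraries with those of the preceding paragraph, and they too contain the uninfested difference for which the genes were chosen. GhAOS-A04 leaned the other way, with a log2 difference of -1.11 (SE 0.37) that did not pass (adjusted p = 0.066). Without WMJJ_rkn replicate 2, which held its lowest infested value in WMJJ, that difference was -1.43 and passed (adjusted p = 0.00703).

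WMJJ and NemX responses differed in none of the 7 genes by limma, where 1.05% of tested genes were called higher and 0.414% lower. At an unadjusted p under 0.05, GhAOS-A04 (log2 1.65, SE 0.37, adjusted p = 0.0128) and GhAOS-D05 (0.74, SE 0.23, adjusted p = 0.08) stood out. GhAOS-A04 was called without WMJJ_rkn replicate 2, with a difference of 1.98 (adjusted p = 0.0014). The intervals of the other 5 genes were wide, from -0.72 to 0.52 for GhLOX3-A10 and from -0.55 to 2.62 for GhLOX3-D06.

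Infested roots of the genotypes were compared next, in libraries other than those on which basal expression was judged. A genotype difference present in both treatments carries the choice of genes over to them. The counts against SJ2_rkn, here and below, are therefore not independent of that choice. The paper does not state whether infested values also entered the choice of genes. In WMJJ_rkn, 5 of the 7 tested genes were higher than in SJ2_rkn, where 2.60% of tested genes were higher and 2.87% lower. GhLOX3-D06 led with 6.45 to 15.8 in WMJJ_rkn against 0, 0 and 3.30 in SJ2_rkn (log2 3.41, SE 0.54, adjusted p = 0.000142), a size that depends on the 0.5 added to values at 0. GhAOS-A04 was 3.39-fold higher (log2 1.76, adjusted p = 6.67e-05), GhAOS-D05 was 2.32-fold higher (log2 1.21, adjusted p = 2.33e-05) and GhAOS-A05 was 2.12-fold higher (log2 1.08, adjusted p = 0.000308).

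GhLOX3-D10 was the fifth, 2.21-fold higher in WMJJ_rkn than in SJ2_rkn (log2 1.15, adjusted p = 0.00856). This call was near the threshold. It was lost with 0.1 added, with no intensity trend, in a fit on those groups alone, and when any of SJ2_rkn replicates 1 and 2 or the WMJJ_rkn libraries was left out, with adjusted p from 0.0106 to 0.0723. GhLOX3-A10 overlapped between these groups (log2 0.66, adjusted p = 0.0423).

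In NemX_rkn, 3 of 7 were higher than in SJ2_rkn (GhLOX3-D10, GhAOS-A05 and GhAOS-D05), where 2.88% of tested genes were higher and 1.81% lower. GhLOX3-D10 was 3.56-fold higher (log2 1.83, SE 0.28, adjusted p = 0.000192), GhAOS-A05 was 2.27-fold higher (log2 1.18, SE 0.18, adjusted p = 0.000211) and GhAOS-D05 was 2.04-fold higher (log2 1.03, SE 0.16, adjusted p = 0.000264). The last lay so close to the fold threshold that equal totals (0.97), quantile normalization (0.94) or leaving out SJ2_rkn replicate 2 (0.94) undid its call. SJ2_rkn replicate 3 had the most reads of its group and the highest SJ2_rkn values of every GhLOX3 gene. Without that library, 5 genes were called, with GhLOX3-A10 at 1.14 and GhLOX3-D06 at 2.38 added. Over the 7 genes the median log2 difference was 1.15 for WMJJ_rkn and 1.03 for NemX_rkn against SJ2_rkn, beside 0.02 and 0.01 over all tested genes.

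**Figure D3:**
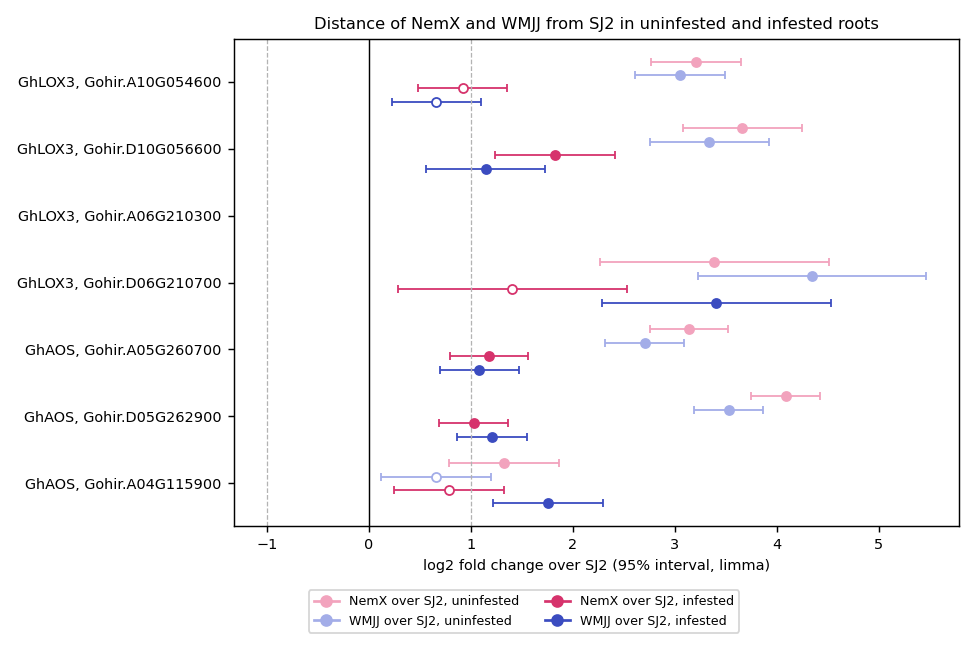
Log2 difference of NemX and of WMJJ from SJ2 for each tested gene with 95% intervals from limma, in uninfested (pale) and infested (dark) roots. Filled points were called and open ones were not, dashed lines mark a log2 difference of 1, and GhLOX3-A06a is left out where a group was at 0 or all values were below 1. Differences from SJ2 reach 4.35 in uninfested and 3.41 in infested roots.

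Between NemX_rkn and WMJJ_rkn, none of the 7 genes was called by limma, where 4.96% of tested genes were higher in NemX and 3.45% lower. Still, 3 had an unadjusted p under 0.05. GhLOX3-D06 was lower in every NemX_rkn library (1.53 to 2.95) than in any WMJJ_rkn library (log2 -2.00, SE 0.54, adjusted p = 0.011). GhAOS-A04 had a log2 difference of -0.98 (adjusted p = 0.0104) and GhLOX3-D10 one of 0.68 (adjusted p = 0.0966). GhLOX3-D06 was called under several other settings, among them a fit on those groups alone (adjusted p = 0.00128). GhAOS-A04 was called without WMJJ_rkn replicate 2 (-1.30, adjusted p = 0.000769) and with equal totals (-1.04, adjusted p = 0.00542).

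Uninfested roots gave the contrast for which the genes were chosen, so these values describe the choice. All 7 tested genes were higher in NemX_ctl than in SJ2_ctl, where 9.37% of all tested genes were higher and 4.11% lower, and 6 were higher in WMJJ_ctl than in SJ2_ctl, where 7.76% were higher and 5.82% lower. The log2 differences of NemX_ctl from SJ2_ctl were 3.21 for GhLOX3-A10, 3.66 for GhLOX3-D10, 3.14 for GhAOS-A05, 4.09 for GhAOS-D05 and 1.33 for GhAOS-A04. For GhLOX3-D06 the difference was 3.39, and it ranged from 2.58 with 1 added to 5.25 with 0.1 added. Those of WMJJ_ctl from SJ2_ctl were 3.05, 3.34, 2.71, 3.53 and 0.66 for the same 5 genes in that order, the last one not called.

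The choice did not set NemX_ctl against WMJJ_ctl. Between these, limma called none of the 7 genes, where 3.74% of tested genes were higher in NemX and 2.09% lower. At an unadjusted p under 0.05 there were 3, GhAOS-A05 (log2 0.44, adjusted p = 0.123), GhAOS-A04 (log2 0.67, adjusted p = 0.0898) and GhAOS-D05. The last had 933 to 1032 in NemX_ctl against 588 to 710 in WMJJ_ctl (log2 0.56, SE 0.16, adjusted p = 0.0238). GhLOX3-A10 differed by 0.15 with a 95% interval from -0.28 to 0.59.

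The A and D copies were also set against each other within each library, as the log2 of (D + 0.5)/(A + 0.5). Since transcript lengths were not at hand, a ratio was not read as a bias in expression, and its change between groups was compared. For AOS, the geometric mean of the ratio GhAOS-D05/GhAOS-A05 in SJ2 was 0.63 without and 1.57 with the nematode. It was 1.12 and 1.72 in WMJJ, and 1.22 and 1.41 in NemX. The log2 ratios of single libraries were -0.90, -0.50 and -0.61 in SJ2_ctl and 0.57, 0.61 and 0.77 in SJ2_rkn, so that every infested SJ2 library lay on the other side of 0. In WMJJ they were 0.11, 0.06 and 0.31 uninfested and 0.71, 0.73 and 0.90 infested, and in NemX 0.19, 0.14 and 0.51 against 0.68, 0.39 and 0.43. Over all genotypes, infested roots had a log2 ratio higher by 0.72 (exact permutation test within genotype, two-sided, p = 0.00075, adjusted p = 0.0075 over 10 tests). Within a genotype the difference was 1.32 in SJ2 and 0.62 in WMJJ, with no overlap between libraries in either, and 0.22 in NemX, where libraries overlapped. With 3 libraries against 3 the smallest exact p is 0.1, so no single genotype could pass. Over both treatments, WMJJ exceeded SJ2 by 0.48 (exact p = 0.015, adjusted p = 0.0214), and NemX exceeded SJ2 by 0.40 (exact p = 0.09, adjusted p = 0.1). By treatment, in uninfested roots NemX lay 0.95 and WMJJ 0.83 above SJ2 with no overlap, whereas in infested roots the differences from SJ2 were -0.15 for NemX and 0.13 for WMJJ and libraries overlapped.

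For GhLOX3-D10/GhLOX3-A10 the mean log2 ratio was highest in NemX, at 1.10 uninfested and 1.01 infested. It was 0.93 and 0.59 in WMJJ, and 0.64 and 0.10 in SJ2. NemX exceeded SJ2 by 0.68 (exact permutation test within treatment, two-sided, p = 0.005, the smallest possible, adjusted p = 0.0125) and WMJJ by 0.30 (exact p = 0.015, adjusted p = 0.0214). Infested roots had a log2 ratio lower by 0.32 over the 3 genotypes (exact p = 0.0127, adjusted p = 0.0214), opposite in sign to the AOS pair. Within a genotype the difference was -0.34 in WMJJ, with no overlap between libraries. It was -0.53 in SJ2 and -0.08 in NemX, where libraries overlapped. The difference between WMJJ and SJ2 was 0.39 (exact p = 0.04, adjusted p = 0.05), and their libraries overlapped in both treatments.

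For the third pair, GhLOX3-D06 was set against the sum of both A06 genes, in WMJJ and NemX alone because these genes were at or near 0 in SJ2. The mean log2 ratio was 0.83 in WMJJ_ctl and 3.28 in WMJJ_rkn, and 0.39 in NemX_ctl and 1.62 in NemX_rkn. Infested roots exceeded uninfested ones by 1.84 (exact permutation test, p = 0.005, adjusted p = 0.0125). No A06 gene exceeded 0.474 in WMJJ_rkn or 0.765 in NemX_rkn, so the infested ratios and the size of this difference depend on the 0.5 added. NemX lay 1.05 below WMJJ (exact p = 0.005, adjusted p = 0.0125), but this difference did not pass with 0.1 added (adjusted p = 0.139) or with GhLOX3-A06b alone as the A gene (adjusted p = 0.106).

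In each group, the library with the most reads had the highest ratio in 5 of 6 cases for GhLOX3-D10/GhLOX3-A10, on average 0.31 above the others on the log2 scale, and in 5 of 6 for GhAOS-D05/GhAOS-A05, by 0.22. With those libraries left out, NemX exceeded SJ2 by 0.78 and WMJJ by 0.27 in the log2 ratio GhLOX3-D10/GhLOX3-A10, as values with no test. The infestation differences were then -0.32 for GhLOX3-D10/GhLOX3-A10, 1.65 for the A06 and D06 genes and 0.72 for the AOS pair. Part of the libraries was made with another kit, and which ones is not labelled.

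**Figure D4:**
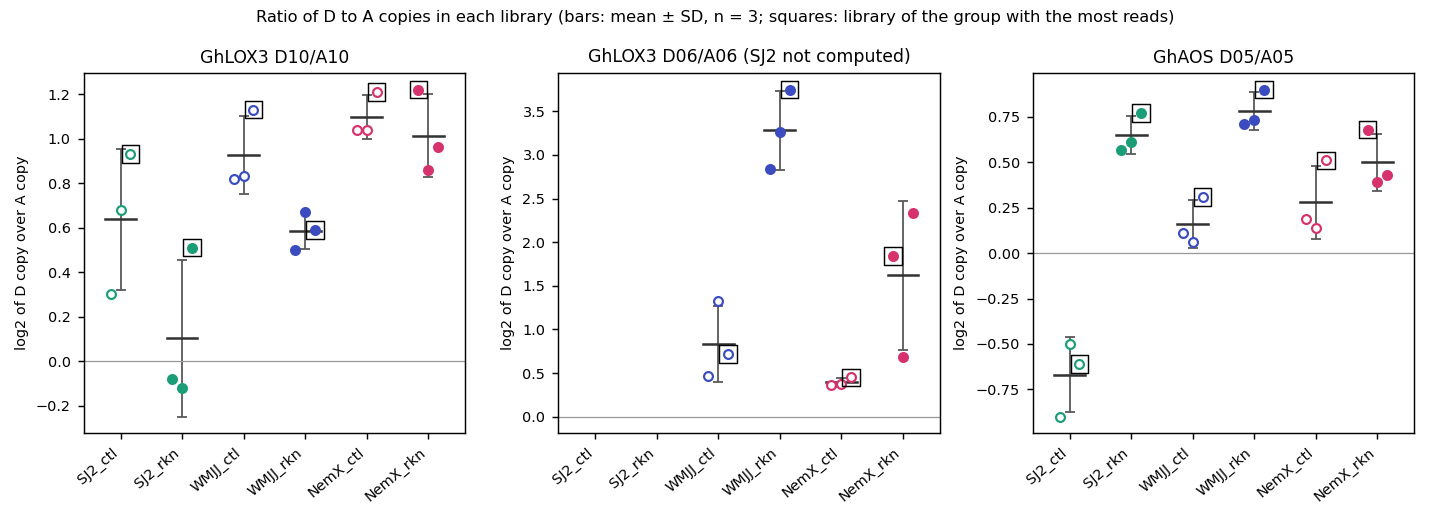
Log2 ratio of the D to the A copy, (D + 0.5)/(A + 0.5), in each library of the 6 groups for the 3 pairs (D06/A06 without SJ2), with open circles for uninfested and filled for infested roots and bars for the mean and SD. Squares mark the library with the most reads in its group. The AOS ratio moves up by 1.32 from uninfested to infested SJ2, and the LOX3 D10/A10 ratio is lowest in infested SJ2, at 0.10.

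Likeness to other genes was taken as Pearson's r of log2(value + 0.5) over the 18 libraries, as a description, since all points share the 6 groups. The gene most like GhLOX3-A10 and GhLOX3-D10 was the same one, Gohir.D13G202000 (r = 0.983 and 0.979). GhLOX3-D10 stood 9th among the genes most like GhLOX3-A10 (r = 0.973), and GhAOS-A05 stood 28th (r = 0.964). The AOS copies were less alike, with GhAOS-D05 79th in the order for GhAOS-A05 (r = 0.947). GhAOS-A05 was most like Gohir.D12G171400 (r = 0.989) and GhAOS-D05 most like Gohir.A01G085900 (r = 0.994). GhAOS-A04 followed another course, with r between 0.015 and 0.598 with the other 6 tested genes and 0.932 with its nearest match, Gohir.D05G203800.

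Among the 28 identifiers that lie within 2 places of a member on its chromosome, 23 were tested, and infestation changed 2 in SJ2, 2 in WMJJ and none in NemX, 1 in each direction in SJ2 and WMJJ. Since 8.09% of all tested genes rose and 5.92% fell in SJ2, and 5.60% rose and 4.84% fell in WMJJ, these counts are near the background and say nothing of the neighbourhood. Of these, Gohir.D05G262600, the second before GhAOS-D05, rose in SJ2 (log2 1.51, adjusted p = 4e-06), from a mean of 2.90 to 9.16. That gene was also called higher in NemX_ctl (log2 1.97) and WMJJ_ctl (2.17) than in SJ2_ctl. Its response was called higher in SJ2 than in NemX (2.11) and WMJJ (1.27). In each of these it was the only 1 of 23 called higher, where 9.37%, 7.76%, 5.22% and 3.95% of tested genes were. Another neighbour was called lower in NemX_ctl than in SJ2_ctl. Gohir.A04G115850, next to GhAOS-A04, rose in WMJJ (log2 1.56, adjusted p = 0.00581). Gohir.D10G057300, near GhLOX3-D10, fell in SJ2 (log2 -1.98, adjusted p = 0.000397), and Gohir.A05G261150, near GhAOS-A05, fell in WMJJ (log2 -1.80, adjusted p = 0.00122). Neighbours were taken by the number in the identifier, which was not checked against a genome.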

How the data were processed

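Reads of 18 root libraries were checked with FastQC 0.11.9, trimmed with Trimmomatic 0.39 and pseudo-aligned with kallisto 0.46.1 to cotton transcripts by the authors, per the submitters' processing notes, which also name edgeR 3.13. The authors deposited normalized signal values per gene near CPM, whose normalization is not stated. They are not read counts. The study lists the pseudo-aligned reads of each library, but the reads behind single values were not worked out. Values below 1, as in several groups of the A06 and D06 genes, can rest on few reads. Every value column matched 1 library by name.

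Differences were computed with limma 3.58.1 in R 4.3.3 on log2(value + 0.5), for 46813 genes with a mean of at least 1 (7695 were left out), in 1 model with a coefficient per group, an intensity trend and Benjamini-Hochberg adjustment within each of 9 comparisons of groups and 3 of responses. The fit was tested on simulated data. Copy ratios were compared by exact two-sided permutation over libraries (Python 3.11.15), adjusted over 10 tests. SJ2 was left out of the D06/A06 ratio after its values at or near 0 had been seen.

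The members and lists were chosen with earlier results of these data known. Genes named are the 8 members, the 2 nearest identifiers on each side of each, and the gene with the highest r for each tested member. Replicate numbers are shared by the groups. Deviations of same-numbered libraries correlated at over 0.1 for every pair in 1 of 9 comparisons, NemX_ctl with SJ2_ctl, where a replicate block gave the same 7 calls. Other scalings, filters, added constants, variance models, fits, thresholds and left-out libraries were tried. No list of markers or other jasmonate genes was used, since the table does not pair identifiers with names.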

Additional observations from a re-analysis of the deposited data

Results flagged for a closer look

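The response to infestation differed between genotypes, by the interaction in limma, for 5 genes between SJ2 and NemX. The log2 response in SJ2 was higher than that in NemX by 2.29 for GhLOX3-A10, 1.83 for GhLOX3-D10, 1.96 for GhAOS-A05 and 3.06 for GhAOS-D05. For GhLOX3-A06a, listed at 0 in every SJ2_ctl library, the adjusted p was 0.00556 and no fold is given. That gene passed the filter on the mean only through WMJJ_ctl and NemX_ctl.

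Between SJ2 and WMJJ the response also differed for 5 genes. It was higher in SJ2 by 2.39 for GhLOX3-A10, 2.19 for GhLOX3-D10, 1.62 for GhAOS-A05 and 2.32 for GhAOS-D05, and GhLOX3-A06a had an adjusted p of 0.00921. Both sets of differences share the SJ2 libraries. SJ2_ctl, WMJJ_ctl and NemX_ctl all belong to the contrast for which the study chose the genes, so these differences are not independent of it.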

How the results depend on the processing

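Counts of genes called held within 1.5 times their main value in 143 of 156 combinations of a comparison and a setting. With 1 library left out they held in 79 of 90 combinations. Both totals include the uninfested comparisons, which held throughout, and those with SJ2 describe the choice of genes. The NemX response held in no fit with 1 library left out. With equal library totals, which move the median log2 difference of all genes by -0.17 in the SJ2 response and by -0.28 between NemX_ctl and SJ2_ctl, the SJ2 response kept 1 call and NemX_rkn against WMJJ_rkn gained 2. The NemX response had 1 call with 0.1 added, with a mean of at least 5 or with no intensity trend. NemX_rkn against WMJJ_rkn had 1 (GhLOX3-D06) with 1 added, a term for the library with the most reads, the compared libraries only or an adjusted p below 0.05. The last threshold and that term also gave 1 call (GhAOS-A04) for the WMJJ against the NemX response. The cause was not tested.

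Leaving out 1 library in turn, counts ran from 2 to 4 (SJ2 response), 3 to 4 (WMJJ), 0 to 1 (NemX), 2 to 5 (NemX_rkn against SJ2_rkn), 4 to 5 (WMJJ_rkn against SJ2_rkn), 0 to 1 (NemX_rkn against WMJJ_rkn), 3 to 5 (SJ2 against NemX response), 0 to 1 (WMJJ against NemX) and 4 to 5 (SJ2 against WMJJ). The NemX response had no call without NemX_ctl replicate 1 or 2 or NemX_rkn replicate 3.

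Same-numbered libraries correlated at over 0.1 for every pair only between NemX_ctl and SJ2_ctl (correlations of deviations from -0.224 to 0.442 over all comparisons). For replicate 3 they ran from 0.265 to 0.442 in comparisons without NemX_rkn and were below 0 in those with it. Replicate 3 had the most reads of its group except in NemX_rkn, where replicate 1 did. A replicate block thus does not match NemX_rkn to the other groups by depth. Whether depth accounts for the correlations was not tested. A replicate block gave 1 call for NemX_rkn against WMJJ_rkn (GhLOX3-D06, -2.00, adjusted p = 0.00441). It also gave 1 for the WMJJ against the NemX response (GhAOS-A04, 1.65, adjusted p = 0.0044). The block gave 0.39 for the D10/A10 ratio between WMJJ and SJ2 (exact permutation, adjusted p = 0.0391), and it lost GhLOX3-A06a in SJ2 against WMJJ (adjusted p = 0.0111, 4 calls in place of 5). Counts in the other comparisons did not move under the block. That ratio difference also passed at 0.39 with labels exchanged within depth class (exact, adjusted p = 0.0174), and it ran from 0.30 to 0.49 without single libraries. The D06/A06 difference between NemX and WMJJ was -0.88 with 0.1 added and -0.73 with GhLOX3-A06b alone, and did not pass.

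Signs turned only for differences that were not called. Without single libraries, GhLOX3-D06 ran from -0.15 (without SJ2_rkn replicate 3) to 1.31 in the SJ2 response, from -0.03 (without the same library) to 1.43 in SJ2 against WMJJ and from -0.44 to 0.17 in the WMJJ response. GhAOS-D05 ran from -0.09 to 0.07 in the WMJJ response, GhAOS-A05 from -0.04 to 0.21 in NemX_rkn against WMJJ_rkn and GhLOX3-A10 from -0.26 to 0.01 in WMJJ against NemX. GhLOX3-A06a ran from -0.30 to 0.37 in WMJJ against NemX (-0.02 with equal totals) and from -0.17 to 0.12 in NemX_ctl against WMJJ_ctl (0.02 with quantile normalization). GhLOX3-A10 gave -0.05 in NemX_ctl against WMJJ_ctl with quantile normalization.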
